A study of Mus musculus with 8 samples.

Results

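The genes described here are the mouse genes named Zfp followed only by a number, a naming series for zinc-finger proteins, whose FPKM averaged 1 or more across the 8 libraries. FPKM are fragments counted per length of transcript and per size of the library, so levels can be compared between genes. Of 34369 gene symbols in the deposited table, 343 had such a name. The members were thus chosen by name and by their mean level in both groups together. Of the 343, 249 were members, 90 had a lower mean, and 4 were left out by name: Zfp42, a pluripotency marker, and Zfp534, Zfp600 and Zfp931, which stand for zinc-finger gene clusters on chromosomes 4 and 2. The name says nothing of position, and 1 member, Zfp933, lay 120.433 kb from Zfp534, within the chromosome 4 cluster, so the members are not all outside the clusters. Gene positions are those of GENCODE M21 (GRCm38) for the gene ID in each row, not the authors' own, and 10 members carry another symbol there.

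RNA was sequenced from induced pluripotent stem (iPS) cells, which are reprogrammed to a state like that of embryonic stem cells. The 5 mutator libraries came from lines homozygous for D257A in Polg, the gene of the enzyme that copies mitochondrial DNA; the substitution removes its proofreading, so mitochondrial DNA collects mutations. The 3 wild-type libraries came from lines of littermate embryos. All lines were grown with LIF on arrested feeder cells and passaged once on gelatin before RNA was taken. Mutator replicates 1 and 2, whose column headers share a line code (u6 and u6_1), differed by an estimated 1.24 times the squared difference that fragment sampling gives, where the 12 remaining pairs within groups gave 4.98 to 18.4. Depth is not recorded, so sampling was computed from 2.65e+07 fragments, a number inferred from 14 low genes in mutator replicate 1. It was used for every library, so the ratios are approximate. By this estimate mutator replicates 1 and 2 differed by about as much as sampling gives. They were counted as 1 sample, so that 4 mutator were compared with 3 wild-type samples. The wild-type headers all carry the number 7 (7a, 7b, 7c), so embryo of origin and genotype cannot be told apart if these lines came from 1 embryo.

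Most numbered Zfp genes encode C2H2 zinc-finger proteins, in which each finger folds around a zinc ion and contacts a few bases of DNA, so that a row of fingers reads a long sequence. Many also carry a KRAB domain at their start. It binds TRIM28, which brings in the histone methyltransferase SETDB1 and HP1 proteins, and in embryonic stem cells this complex silences retroviral elements and protects imprinted regions. KRAB zinc-finger genes arose by tandem duplication and lie in clusters of similar copies. Other numbered Zfp genes have unrelated roles in transcription, RNA binding and chromosome segregation, and some have no C2H2 finger at all.

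In mutator cells 21 of the 249 genes were lower (8.43%) and 0 were higher (limma on log2(FPKM + 1), Benjamini-Hochberg adjusted p below 0.05 over 11949 genes). Among all genes tested, 4.54% were lower and 2.95% were higher. At an unadjusted p below 0.05, 70 members were lower and 11 higher, where 16.8% and 13.6% of all genes tested were. All 5 mutator libraries lay below every wild-type library with a value for 81 members (32.5%), and all 5 lay above for 9 (3.61%). The shares over all genes tested, with missing values skipped in the same way, were 15.9% and 11.8%. The 81 include Zfp281 and Zfp292, which had 1 wild-type value each. The median log2 change, mutator minus wild type, was -0.21 for the members and -0.03 for all genes tested, and after rescaling to TPM the member median turned to 0.17 while that of all genes moved to 0.37. Relative to the median of all genes it was -0.18 as deposited, -0.19 with TPM and -0.18 with median-of-ratios size factors. The members' changes ran from -1.43 to 0.73 with an SD of 0.38, against an SD of 0.63 over all genes tested.

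The calls depended on single samples and on the scaling. With median-of-ratios size factors 32 members were lower and 7 higher, where 8.6% and 8.93% of all genes tested were. With TPM 1 of the 21 was still lower, and most members called were higher, as the last section gives. With 8 separate libraries 53 were lower and 4 higher, where 10.9% and 7.58% of all genes tested were, and with array weights 57 were lower and 7 higher, where 12.3% and 10.7% were. Without wild-type replicate 1, 2 or 3, and without the mutator 1 and 2 pair, 0 members were lower in each case. Without mutator replicate 4 there were 5, without 5 there were 14 and without 3 there were 23, while the log2 change of each of the 21 genes stayed below 0 in every alternative in which it was tested. Shares over all genes tested are not given for TPM or for the fits without a sample. It is therefore not shown whether calls over all genes changed alike. The mean filter of 1 FPKM was met in both groups by 233 members, in the wild-type mean alone by 8 and in the mutator mean alone by 8, and 0 of the 21 lower genes had a mutator mean under 1 FPKM. Fewer cells of a type and less RNA per cell cannot be told apart in such bulk libraries.

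The summed level of 10 pluripotent cell markers was 598 to 808 FPKM in mutator libraries and 910 to 1220 FPKM in wild-type libraries. The separation rested on Pou5f1 and Tdgf1 (log2 changes -0.85 and -1.50): the list's median was -0.10, 6 of 10 lay below 0, and with TPM the sums overlapped, at 477 to 873 in mutator libraries and 556 to 1012 in wild-type libraries. The sum of 12 feeder fibroblast markers was 89.7 to 275 FPKM in mutator libraries against 74.4 to 97.0 FPKM in wild-type libraries, and that of 12 primitive endoderm markers was 67.9 to 399 FPKM against 55.2 to 66.0 FPKM. With TPM both these sums were higher in every mutator library than in every wild-type library. In FPKM this held for the primitive endoderm markers only, as the feeder sums overlapped. Of these markers 0 were at 0 in every library, 0 were called, and 2, 2 and 6 of those tested in each list had an unadjusted limma p below 0.05, lower for the pluripotent markers and higher for the others. Eif2s3y, a Y-linked gene, was at 3.76, 4.14, 65.3, 0.957 and 52.4 FPKM in mutator libraries 1 to 5 and at 94.4, 47.8 and 57.3 FPKM in wild-type libraries. The part of either in the members' changes was not tested. The members' median log2 change was -0.12 with mutator replicates 4 and 5 alone, against 0.02 for all genes, and -0.20 with replicates 3 and 5 alone, against 0.02 for all genes. Among mutator libraries, 4 and 5 had the lowest feeder sums and 3 and 5 the highest Eif2s3y. Both subsets hold replicate 5, which had the highest primitive endoderm sum, 399 FPKM, and neither subset is a test of a cause. Mutator libraries had 11478 to 11899 genes at 1 FPKM or more and wild-type libraries 11198 to 11445, so the groups did not overlap. The part of this difference in the members' changes was not tested. The table records no read depth, and Polg, whose level a substitution need not change, differed by 0.07 ± 0.18 (SE) on the log2 scale.

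Promoters are shown for 6 of the 21 lower genes, because 13 of the 18 lower genes with a promoter in the RefSeq table had a CCAAT box and because the members as a whole often held a longer motif bound by Zfp143. The windows run from 250 bases before to 50 bases after the first listed RefSeq start (GRCm38.p6), both strands were searched, and 199 members were matched by symbol. The 250 bases before the start are printed 5′ to 3′ on the gene's strand, with motif matches in capitals (CCAAT, or ATTGG where it lies on the other strand; the Zfp143-type motif is ACTACA, any base and TTCC). They lie at chr7:43606919-43607168 on the plus strand (Zfp819), chr7:43177340-43177589 on the plus strand (Zfp936), chr9:22225453-22225702 on the plus strand (Zfp809), chr7:30090511-30090760 on the minus strand (Zfp566), chr5:110109842-110110091 on the plus strand (Zfp605) and chr13:74390830-74391079 on the minus strand (Zfp72). Zfp819, Zfp936 and Zfp809 show the CCAAT box, and Zfp566, Zfp605 and Zfp72 are the 3 lower genes with the longer motif. The RefSeq start of Zfp936 lies within the GENCODE gene.
Zfp819: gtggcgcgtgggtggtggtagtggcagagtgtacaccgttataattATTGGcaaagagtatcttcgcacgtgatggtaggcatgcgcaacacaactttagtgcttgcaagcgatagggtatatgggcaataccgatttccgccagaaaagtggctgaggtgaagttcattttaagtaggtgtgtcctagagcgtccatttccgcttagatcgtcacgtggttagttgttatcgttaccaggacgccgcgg
Zfp936: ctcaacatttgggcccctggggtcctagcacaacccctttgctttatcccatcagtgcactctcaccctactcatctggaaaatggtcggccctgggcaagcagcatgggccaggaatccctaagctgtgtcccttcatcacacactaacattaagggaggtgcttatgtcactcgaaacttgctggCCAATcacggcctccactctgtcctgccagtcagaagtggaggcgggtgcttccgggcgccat
Zfp809: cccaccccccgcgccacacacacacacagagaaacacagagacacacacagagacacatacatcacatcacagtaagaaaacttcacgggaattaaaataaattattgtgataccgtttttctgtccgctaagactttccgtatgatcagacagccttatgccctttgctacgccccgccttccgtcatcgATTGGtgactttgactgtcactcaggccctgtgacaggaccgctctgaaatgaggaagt
Zfp566: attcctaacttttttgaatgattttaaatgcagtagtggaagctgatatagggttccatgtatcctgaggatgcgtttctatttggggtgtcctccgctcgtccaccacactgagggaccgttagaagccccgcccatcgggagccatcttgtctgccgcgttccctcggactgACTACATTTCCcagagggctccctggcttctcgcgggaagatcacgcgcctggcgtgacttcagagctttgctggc
Zfp605: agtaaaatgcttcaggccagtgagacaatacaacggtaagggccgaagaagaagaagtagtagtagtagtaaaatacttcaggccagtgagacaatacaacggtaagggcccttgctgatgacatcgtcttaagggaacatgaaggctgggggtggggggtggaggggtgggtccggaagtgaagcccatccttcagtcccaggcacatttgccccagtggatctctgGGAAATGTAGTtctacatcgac
Zfp72: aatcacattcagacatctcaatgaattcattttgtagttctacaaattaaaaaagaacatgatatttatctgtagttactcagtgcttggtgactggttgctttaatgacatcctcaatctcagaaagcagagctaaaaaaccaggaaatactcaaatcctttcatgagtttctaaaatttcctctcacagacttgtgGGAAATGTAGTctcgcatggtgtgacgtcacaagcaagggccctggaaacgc

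The CCAAT box began 204 bases before the start in Zfp819, 63 in Zfp936 and 59 in Zfp809. The Zfp143-type motif began 76 bases before the start in Zfp566, 22 in Zfp605 and 52 in Zfp72. CCAAT was found in 72.2% of the promoters of the 18 lower members, in 47.5% of the 181 other members, in 39.9% of the 7645 tested genes with a promoter, and in 37.9% of all 27025 promoters. Among members with the KRAB A box pattern described below it was in 57.7% of 104 promoters, and in 41.3% of 92 without it. Of the 21 lower members 16 hold that pattern, so the share of lower members is not separate from that of KRAB genes. The Zfp143-type motif was found in 14.1% of member promoters (28 of 199), in 2.59% of those of tested genes and in 1.09% of all promoters; among lower members the share was 16.7%, close to the 13.8% of the other members. GGGCGG, the GC box, was found in 46.2% of member promoters, 16.7% of those of the lower members, 67.5% of those of tested genes and 35.9% of all promoters, so that members lay below tested genes and above all promoters. Members with the KRAB A box pattern had it in 39.4% and those without in 55.4%. The median GC content was 54.3% in members, 51.3% in lower members and 61.3% in tested genes, and how far base composition sets these shares was not tested. The motifs were chosen after the data were seen, and a match is a description of the letters.

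TATAAA was found in 7.04% of member promoters and 6.55% of those of tested genes. CCGGAAGT, an ETS-type motif, was found in 9.55% and 9.27%, and CACGTG, an E box, in 11.1% of each set. CCATNTT, a YY1-type motif, was more frequent, at 26.1% of member promoters and 16.01% of those of tested genes. GCATGCGC, an NRF1-type motif, was in 5.03% of member promoters and 6.20% of those of tested genes, and in 3 of the 18 lower members (16.7%).

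Zfp809, which recognises the primer-binding site of murine leukaemia viruses and recruits TRIM28 to proviruses, was at 3.51, 3.58, 4.801, 5.23 and 5.32 FPKM in mutator libraries 1 to 5 and at 7.59, 8.495 and 8.74 FPKM in wild-type libraries 1 to 3. The highest mutator library lay below the lowest wild-type one. Its mean was 4.73 ± 0.817 FPKM in mutator cells and 8.28 ± 0.605 FPKM in wild-type cells (SD, n = 4 and 3), a log2 change of -0.71 ± 0.17 (SE; limma adjusted p = 0.0424). Zfp819, a KRAB zinc-finger gene linked to retrotransposon silencing in mouse pluripotent cells, was at 1.14, 1.29, 2.15, 1.202 and 1.21 FPKM in mutator libraries and at 5.56, 5.01 and 5.89 FPKM in wild-type libraries. Mutator replicate 3 was the highest of the 5 mutator libraries and still lay under all wild-type libraries. The log2 change was -1.43 ± 0.18 (SE; limma adjusted p = 0.0205), the lowest among the members, and the mean fell to 0.263 times that of wild-type cells. Both tested genes of the retroviral silencing list were thus lower; Zfp638, the other gene on that list, was not analysed here.

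Zfp57, which binds methylated imprinting control regions and keeps their methylation, had the highest level among the members, at 96.3, 96.1, 111, 109 and 109 FPKM in mutator libraries and 104, 132 and 100.8 FPKM in wild-type libraries. The groups overlapped, and the log2 change was -0.07 ± 0.19 (SE; limma adjusted p = 0.831). Zfp445, which acts beside Zfp57 at imprinted regions, was at 9.47, 9.31, 8.52, 9.399 and 11.5 FPKM in mutator libraries and 13.8, 13.5 and 13.6 FPKM in wild-type libraries. Its groups did not overlap, but the change of -0.46 ± 0.15 (SE) missed the threshold (limma adjusted p = 0.0931). It passed with 8 separate libraries and with array weights, where 10.9% and 12.3% of all genes tested were lower. With TPM its change was 0.01. Zfp568, which represses a placental transcript of Igf2, was at 22.4, 21.8, 28.4, 24.6 and 33.1 FPKM in mutator libraries and 29.6, 23.5 and 29.1 FPKM in wild-type libraries, with a log2 change of -0.03 ± 0.20 (limma adjusted p = 0.942). Of the 3 genes of the imprinting list 0 were called, and 1, Zfp445, had an unadjusted p below 0.05. The sign of the small changes of Zfp57 and Zfp568 turned with the scaling: with TPM they were 0.44 and 0.47, close to the 0.37 of all genes.

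Among 15 numbered Zfp genes of the pluripotency network and of chromatin complexes, 13 were tested and 1 was lower, where 4.54% of all genes tested were. This was Zfp207, known as BuGZ, which binds microtubules and the checkpoint protein BUB3 at kinetochores and has a role in splicing. It was at 58.6, 55.3, 44.4, 53.1 and 62.5 FPKM in mutator libraries and 111, 95.2 and 88.8 FPKM in wild-type libraries, a log2 change of -0.85 ± 0.20 (SE; limma adjusted p = 0.0421). Its groups stood apart, and at a mean of 71.1 FPKM over the libraries it was the most abundant of the lower members. The list's changes ran from -0.85 to 0.39 with a median of -0.12, 8 of 13 lay below 0, and with TPM 5 of 13 did. Zfp281, a factor of the core pluripotency network, had a value in 1 wild-type library only, at 21.6 FPKM, against 14.3, 13.8, 14.4, 12.99 and 16.2 FPKM in mutator libraries; its change of -0.56 ± 0.25 therefore rests on 1 wild-type value. Zfp292 likewise had 1 wild-type value, 14.1 FPKM, against 8.53, 8.36, 12.9, 10.3 and 10.98 FPKM in mutator libraries.

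Of 11 genes for RNA-binding, ribosome-linked and ubiquitin or SUMO pathway proteins, 0 were called by limma; 2 were lower and 1 higher at an unadjusted p below 0.05. The most abundant was Zfp106, an RNA-binding protein needed by motor neurons, at 65.7 ± 13.3 FPKM in mutator cells and 73.01 ± 12.5 FPKM in wild-type cells (SD, n = 4 and 3), with a log2 change of -0.16 ± 0.23 (SE). Zfp451, a SUMO ligase, was at 12.9 ± 2.16 FPKM in mutator cells and 13.999 ± 1.76 FPKM in wild-type cells, with a log2 change of -0.12 ± 0.18. The spread within groups exceeded both differences, and with TPM the changes of Zfp106 and Zfp451 were both 0.35. Zfp746, known as PARIS, a repressor of the mitochondrial biogenesis regulator PGC-1alpha, was at 2.36, 2.396, 1.75, 1.74 and 2.33 FPKM in mutator libraries and 2.02, 1.7995 and 1.82 FPKM in wild-type libraries. Its groups overlapped, with a log2 change of 0.08 ± 0.16 (limma adjusted p = 0.768).

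The lower members that stand in no role list were mostly KRAB zinc-finger genes of unassigned function. Zfp936 had the smallest p, with 5.31, 4.74, 5.58, 5.63 and 4.55 FPKM in mutator libraries 1 to 5 and 14.95, 15.7 and 15.8 FPKM in wild-type libraries 1 to 3. The libraries of each group lay close together and far from the other group. The mean was 5.19 ± 0.512 FPKM in mutator cells and 15.5 ± 0.459 FPKM in wild-type cells (SD, n = 4 and 3), a log2 change of -1.41 ± 0.14 (SE; limma adjusted p = 0.0156). Of its transcript's 50-base words, 15.2% also occur in transcripts of other genes, so reads could be shared with copies. Zfp882 was at 2.64, 1.698, 1.86, 1.96 and 2.24 FPKM in mutator libraries and 4.83, 4.48 and 4.31 FPKM in wild-type libraries. Its change was -0.86 ± 0.14 (SE; limma adjusted p = 0.0262), with mutator replicate 1 the highest of its group. Zfp493 was at 1.91, 2.03, 1.76, 2.05 and 2.35 FPKM in mutator libraries and 5.02, 4.36 and 4.53 FPKM in wild-type libraries. Its groups were as clearly apart, with a change of -0.90 ± 0.14 (limma adjusted p = 0.0262). No KRAB pattern was found in the annotated protein of Zfp493.

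Zfp345 was at 3.61, 3.51, 3.52, 3.18 and 3.79 FPKM in mutator libraries and 7.94, 6.68 and 6.75 FPKM in wild-type libraries, a log2 change of -0.85 ± 0.14 (SE; limma adjusted p = 0.02703). The mutator libraries differed among themselves by less than 1 FPKM. Zfp808 was at 3.75, 3.54, 2.95, 5.53 and 4.49 FPKM in mutator libraries and 9.08, 9.61 and 9.94 FPKM in wild-type libraries, a change of -1.06 ± 0.19 (limma adjusted p = 0.0307). Mutator replicate 4 was the highest of its group here. Transcripts of other genes hold 29.8% of the 50-base words of Zfp345 and 43.1% of those of Zfp808, so both levels are uncertain. Zfp566 was at 1.01, 1.11, 2.17, 2.41 and 2.15 FPKM in mutator libraries and 5.45, 5.53 and 4.58 FPKM in wild-type libraries, a change of -1.09 ± 0.20 (limma adjusted p = 0.0309). Mutator replicates 1 and 2, counted as 1 sample, were lower than the other mutator libraries, which in turn lay under the wild-type range. Of the words of Zfp566, 15.7% occur in transcripts of other genes. Zfp599 was at 2.24, 2.14, 3.05, 2.67 and 3.19 FPKM in mutator libraries and 5.51, 5.35 and 5.81 FPKM in wild-type libraries, a change of -0.80 ± 0.15 (limma adjusted p = 0.0309). Again replicates 1 and 2 were lowest and the groups did not overlap.

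Zfp770, a zinc-finger gene without a KRAB pattern, was at 2.77, 2.99, 4.23, 3.798 and 4.17 FPKM in mutator libraries and 7.31, 7.199 and 7.42 FPKM in wild-type libraries. The wild-type libraries lay within 1 FPKM of each other, and the log2 change was -0.81 ± 0.16 (SE; limma adjusted p = 0.0314). Zfp605 was at 2.34, 2.304, 2.43, 2.57 and 2.77 FPKM in mutator libraries and 4.198, 4.76 and 4.68 FPKM in wild-type libraries, a change of -0.65 ± 0.13 (limma adjusted p = 0.03602). Its mutator libraries lay within 1 FPKM of each other. Zfp26 was at 10.1, 9.31, 9.79, 10.96 and 10.2 FPKM in mutator libraries and 16.5, 16.1 and 16.1 FPKM in wild-type libraries, a change of -0.63 ± 0.14 (limma adjusted p = 0.0402). Zfp386 was at 4.47, 4.17, 5.33, 3.75 and 3.44 FPKM in mutator libraries and 8.08, 8.54 and 6.85 FPKM in wild-type libraries, a change of -0.77 ± 0.17 (limma adjusted p = 0.0403). Neither gene's groups overlapped, and Zfp26 changed least of these 4 relative to its level, at 0.626 times the wild-type mean.

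The other lower members were Zfp141 (log2 change -1.07), Zfp958 (-0.93), Zfp428 (-0.85), Zfp97 (-0.75), Zfp72 (-0.72), Zfp960 (-0.68) and Zfp160 (-0.60). Zfp141 was at 7.89, 5.72, 13.2, 14.7 and 12.5 FPKM in mutator libraries and 21.7, 28.2 and 25.3 FPKM in wild-type libraries, and its mutator values spread the most in FPKM among the lower members after those of Zfp207. Other genes' transcripts hold 11.7% of its 50-base words, so its reads too could be shared. Zfp97 and Zfp960 are neighbours on chromosome 17, and 81.3% and 82.7% of their 50-base words occur in transcripts of other genes, so their reads cannot be assigned with certainty and they may not be 2 separate observations. Over the 21 lower genes the mutator mean was 0.263 to 0.626 times the wild-type mean, and it was at or below 0.5 times in 11 of them. Zfp819, Zfp141 and Zfp936 also had the largest SD of log2(FPKM + 1) over the 8 libraries, at 0.772, 0.744 and 0.742.

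**Figure D1:**
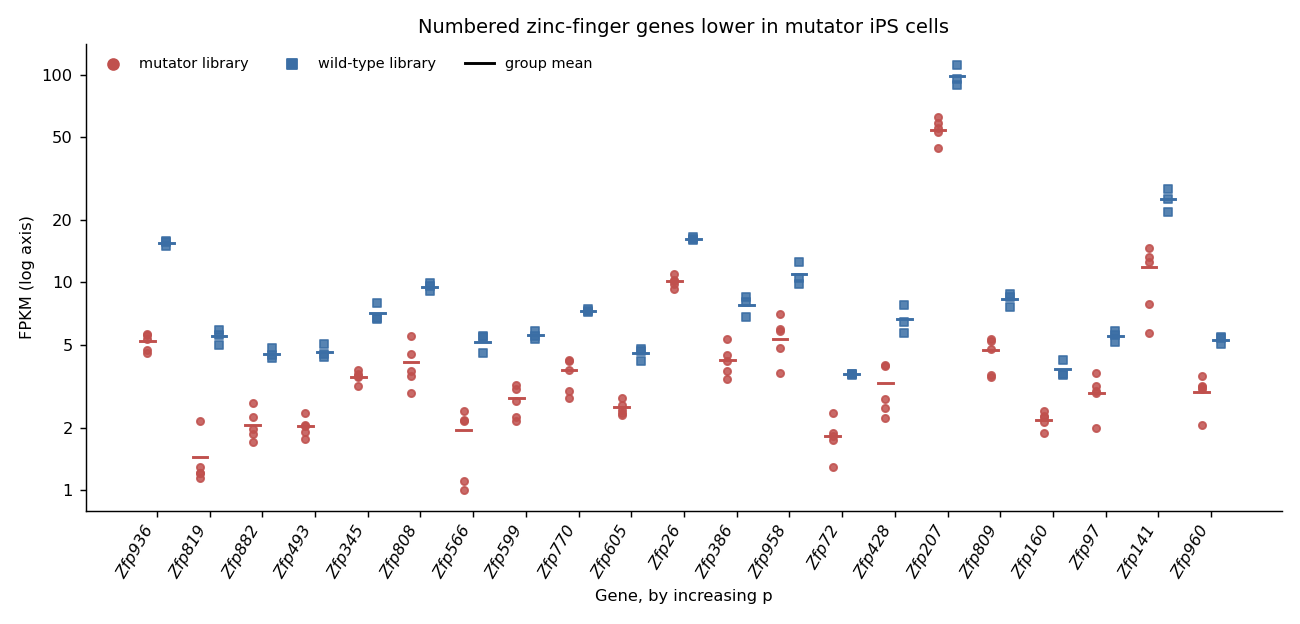
FPKM on a log axis of the 21 numbered zinc-finger genes lower in mutator iPS cells, by increasing p; circles are the 5 mutator libraries, squares the 3 wild-type libraries and bars the group means. In each gene all mutator libraries lie below all wild-type libraries, which such a call favours.

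At the other end 0 members were called higher by limma, and 11 were higher at an unadjusted p below 0.05. The highest change was that of Zfp777, at 3.61, 3.56, 4.498, 4.23 and 6.47 FPKM in mutator libraries and 3.07, 2.88 and 1.41 FPKM in wild-type libraries, with a log2 change of 0.73 ± 0.24 (SE; limma adjusted p = 0.0904). The groups did not overlap. Zfp704, named here after its values were seen because its p was the smallest on this side, was at 3.74, 3.68, 3.39, 3.46 and 3.35 FPKM in mutator libraries and 1.93, 2.23 and 2.25 FPKM in wild-type libraries, a change of 0.51 ± 0.13 (limma adjusted p = 0.0538). Zfp777 was likewise singled out after its values were seen. Both passed the threshold with TPM and with size factors from median ratios, and Zfp704 also with 8 separate libraries, array weights or a pseudocount of 0.1. With TPM the median of all genes was itself 0.37. Of all genes tested 8.93% were higher with size factors, 7.58% with 8 separate libraries and 10.7% with array weights.

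The members ranged in level from 1.005 to 107 FPKM over the 8 libraries, with a median of 3.08 FPKM, against 5.31 FPKM over all genes tested. Only 73 reached 5 FPKM and 6 reached 20 FPKM. The 3 most abundant were Zfp57, Zfp207 and Zfp106 at 107, 71.1 and 66.6 FPKM. The members just inside the limit of 1 FPKM were Zfp563, Zfp811 and Zfp865 at 1.005, 1.02 and 1.02 FPKM, and the genes just outside were Zfp69, Zfp46 and Zfp334 at 0.996, 0.993 and 0.989 FPKM. Of the genes left out by name, Zfp534 was at 6.84, 6.82, 6.93, 11.8 and 8.74 FPKM in mutator libraries and 22.2, 24.9 and 26.5 FPKM in wild-type libraries, and Zfp600 was at 2.39, 2.17, 1.72, 2.66 and 1.32 FPKM and 8.28, 6.74 and 8.76 FPKM. Zfp931 was at 2.697, 2.81, 2.54, 2.75 and 2.94 FPKM in mutator libraries and 6.33, 5.91 and 4.69 FPKM in wild-type libraries, while Zfp42 was at 9.09, 9.21, 5.88, 7.57 and 10.001 FPKM and 13.8, 10.97 and 9.07 FPKM. The groups overlapped for Zfp42, which was not called, and did not overlap for the other three.

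The members were then divided by what their annotated proteins hold. The longest GENCODE M21 coding sequence of each gene was translated and searched for C2H2 fingers and for the KRAB A box, the part of the domain that binds TRIM28. In 245 members with a coding sequence the median was 10 fingers and the highest was 36, and 10 had 0 fingers, among them Zfp36, which binds AU-rich RNA with another type of finger. A KRAB A box pattern widened after the data were seen, to take in divergent boxes such as that of Zfp57, was found in 119 members. Among them were Zfp781, Zfp935 and Zfp82, named here for their annotation, with 0 fingers in proteins of 243, 150 and 56 residues. The gene ID of Zfp82 carries the symbol Gm26920 in GENCODE. A count of 0 in such short proteins need not mean a gene without fingers. Of these 119, 16 were lower (13.4%) and 103 lay below 0, with a median log2 change of -0.31. Of the 126 members without the pattern 5 were lower (3.97%, near the 4.54% of all genes tested) and 66 lay below 0, with a median of -0.02. With TPM the medians were 0.04 and 0.33, both above 0, so that direction flips there, while the difference between them was -0.29 as before.

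The difference between members with and without the pattern was -0.24 to -0.40 over every alternative fit with the wider pattern, the largest with a pseudocount of 0.1. With the narrower pattern first planned the difference was smaller, at -0.17, and 12 of 96 members were lower with a median of -0.29, against 9 of 149 members without it with a median of -0.11. The 23 members found by the wider pattern alone had a median of -0.37. The division held at each level of expression: from 1 to below 2 FPKM the medians were -0.23 with and 0.07 without the pattern, from 2 to below 5 FPKM they were -0.36 and -0.03, and at 5 FPKM or more they were -0.44 and -0.16. Among members with under 5% of their 50-base words in other genes, 9 of 87 with the pattern were lower with a median of -0.31, and 5 of 115 without it with a median of 0.003. No test was made of this division, because it was chosen with the results known and because the genes are related copies.

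**Figure D2:**
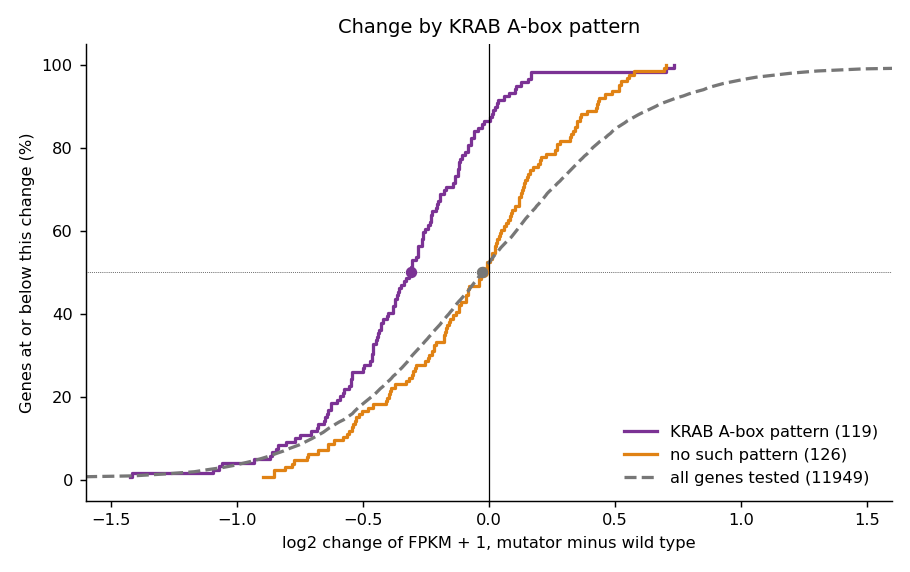
Cumulative share of genes (vertical axis, %) by log2 change of FPKM + 1, mutator minus wild type (horizontal axis), for 119 members with the KRAB A-box pattern, 126 without and all 11949 genes tested; dots mark medians of -0.31, -0.02 and -0.03. The curve with the pattern lies left of 0 for most genes; after TPM rescaling its median is 0.04, against 0.37 for all genes.

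Members with and without the widened pattern were also compared library by library, from the same values. For each library the median deviation of log2(FPKM + 1) from the gene's mean over the 8 libraries was taken for a set of genes, and that of all genes tested was subtracted. For members with the KRAB pattern this was -0.02, -0.04, -0.13, -0.03 and -0.19 in mutator libraries 1 to 5, and 0.15, 0.23 and 0.17 in wild-type libraries 1 to 3. Every mutator library was below every wild-type library, with mutator replicates 3 and 5 lowest. For members without the pattern the values were -0.02, 0.01, 0.02, 0.02 and -0.003 in mutator libraries and 0.01, 0.03 and 0.01 in wild-type libraries, and the groups overlapped. In mutator library 1 both sets of members stood at -0.02, so no division showed there. The subtraction removes a shift that all genes of a library share.

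**Figure D3:**
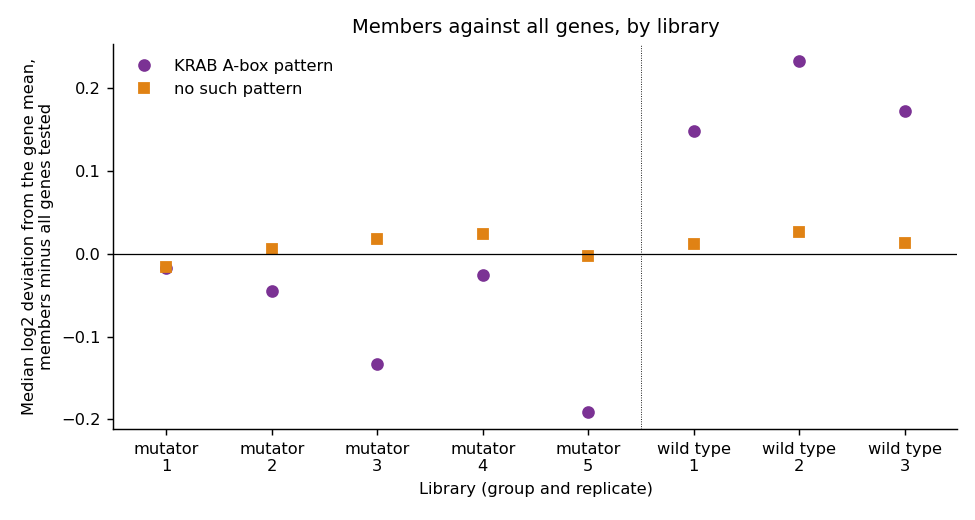
Median log2 deviation of members from the gene means, minus that of all genes tested (vertical axis), in 5 mutator and 3 wild-type libraries (horizontal axis). Members with the KRAB A-box pattern (circles) lie between -0.19 and -0.02 in mutator libraries and between 0.15 and 0.23 in wild-type libraries, while members without it (squares) stay between -0.02 and 0.03.

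Lower members were found in each class of finger number, though in some by 1 gene. From 11 to 15 fingers 9 of 74 were lower with a median log2 change of -0.31, and from 16 fingers 3 of 39 were lower with a median of -0.28. From 6 to 10 fingers 7 of 77 were lower with a median of -0.06, from 2 to 5 fingers 1 of 36 with a median of -0.10, and with 0 or 1 finger 1 of 19 with a median of -0.18. The class with 0 or 1 finger includes Zfp781, Zfp935 and Zfp82, whose annotated proteins are short and hold the KRAB pattern. Of all genes tested 4.54% were lower, and the shares of 2.78% from 2 to 5 fingers, 5.26% with 0 or 1 and 7.69% from 16 lie near that, on 3 or fewer genes each. The medians are on the deposited scale, where that of all genes was -0.03; with TPM it was 0.37.

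Of 24 KRAB pathway genes that are no members, 23 were tested and 1 was lower, Smarcad1, a chromatin remodeller that binds TRIM28. It was at 8.68, 8.82, 14.1, 14.96 and 16.6 FPKM in mutator libraries and 27.6, 24.3 and 25.1 FPKM in wild-type libraries, a log2 change of -0.90 ± 0.22 (SE; limma adjusted p = 0.0484). One such gene is about what the 4.54% of all genes tested gives. At an unadjusted p below 0.05, 8 were lower and 0 higher, where 16.8% and 13.6% of all genes tested were. The median of the list was -0.35, with 18 of 23 below 0, and with TPM it was 0.14, with 18 of 23 below the median of all genes in both cases. Trim28, the shared cofactor, was at 52.7, 51.5, 121, 70.02 and 101.2 FPKM in mutator libraries and 164, 114 and 128 FPKM in wild-type libraries, with groups that overlapped and a change of -0.70 ± 0.31 (limma adjusted p = 0.173). The HP1 genes Cbx1, Cbx3 and Cbx5 had changes of -0.97, -0.85 and -0.66 (limma adjusted p = 0.0507, 0.0992 and 0.0718). Their groups did not overlap, and none was called. The highest change in the list was 0.42. Trim28 and the HP1 genes were named after their values were seen.

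The 21 lower members were spread over 9 chromosomes. Chromosome 7 held 57 members, 5 of them lower, with a median log2 change of -0.23, against 0.02 for its 849 tested genes, of which 3.65% were lower. Chromosome 17 held 37 members, 3 of them lower, with a median of -0.29, against 0.0004 for its tested genes, of which 4.103% were lower. Chromosome 13 held 24 members, 3 of them lower and 22 below 0, with a median of -0.30, against -0.14 for its tested genes, of which 4.51% were lower. Chromosome 9 held 14 members, 3 of them lower and 12 below 0, with a median of -0.33, against -0.01 for its tested genes, of which 3.58% were lower. Chromosome 8 held 17 members, 2 of them lower, with a median of -0.28, against -0.01 for its tested genes, of which 3.19% were lower. The other lower members were on chromosomes 2 (Zfp345 and Zfp770), 5 (Zfp605), 11 (Zfp207) and 12 (Zfp386).

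Of 14 chromosomes with at least 5 members, the member median lay below 0 in 12, but in 0 with TPM. It lay below the median of the same chromosome's tested genes in 11 as deposited, in 14 with TPM and in 12 with median-of-ratios size factors. The exceptions as deposited were chromosomes 5 and 6, with member medians of 0.04 each, and chromosome 18, at -0.05 for both members and all its genes. On the X chromosome all 4 members, Zfp182, Zfp185, Zfp275 and Zfp449, had changes above 0, at 0.15, 0.52, 0.44 and 0.13, against a median of -0.09 over 470 tested genes of that chromosome. Of the 4, 0 were called, and 1, Zfp275, had an unadjusted limma p below 0.05. Zfp275 passed the threshold with array weights and with size factors from median ratios, where 10.7% and 8.93% of all genes tested were higher. The libraries also differed in the Y-linked Eif2s3y, given above, and in Xist, the RNA that silences an X chromosome, which was at 4.93, 5.07, 3.48, 5.296 and 2.66 FPKM in mutator libraries and 2.02, 2.83 and 3.56 FPKM in wild-type libraries; their part in the X-linked changes was not tested.

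**Figure D4:**
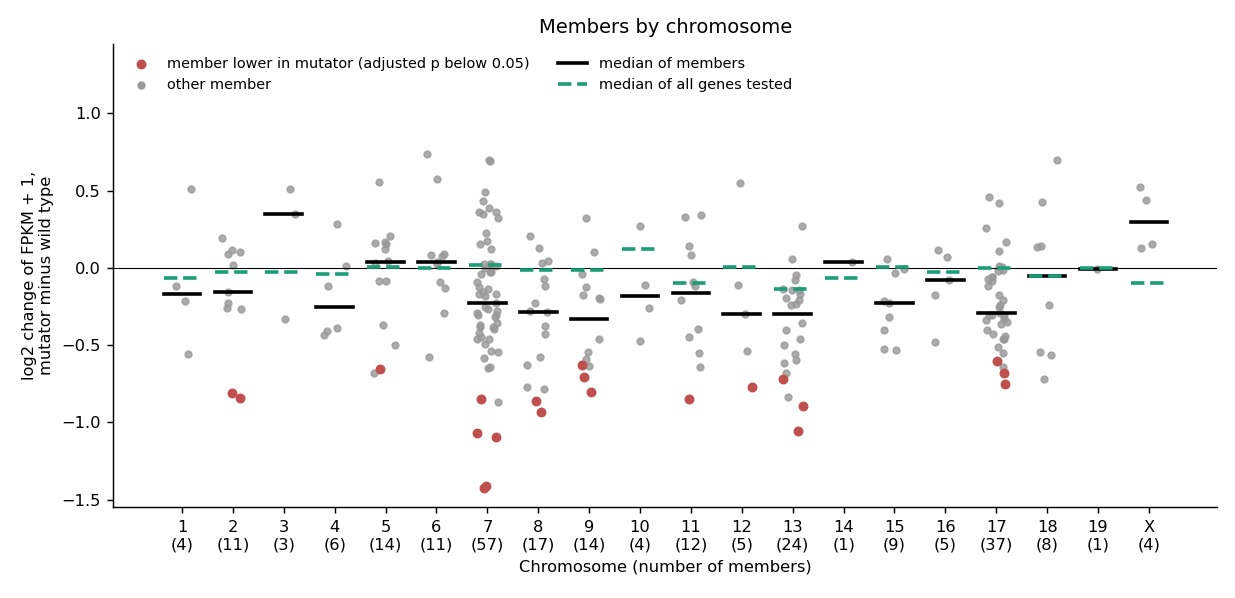
Log2 change of FPKM + 1, mutator minus wild type, of each member with a position (vertical axis) by chromosome (horizontal axis, number of members in brackets); filled red points are lower members, solid bars member medians and dashed bars medians of all tested genes. Member medians lie below those of the chromosome's genes on chromosomes 7, 8, 9, 13 and 17, in FPKM as deposited; with TPM both shift upwards.

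Members often lay side by side: 128 of them formed 24 runs of at least 3, each within 500 kb of the next, and 12 of the 21 lower genes were in 10 of these runs. The median log2 change was -0.26 in runs and -0.12 outside them, and 21 of the 24 runs had a median below 0. With TPM 8 of 24 did, although 22 of 24 lay below the median of all genes, against 20 as deposited. Among members with the KRAB pattern the median was -0.30 over 88 in runs and -0.44 over 31 outside them. Members without the pattern had the opposite order, with -0.15 over 39 in runs and 0.03 over 87 outside them.

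The run with the lowest median, -0.95, was on chromosome 7 at chr7:43114229-43618285 and held Zfp936, Zfp715, Zfp719 and Zfp819. Its outer genes Zfp936 and Zfp819 were lower. Zfp715, between them, was at 2.39, 3.03, 2.67, 2.84 and 2.56 FPKM in mutator libraries and 5.33, 4.17 and 3.31 FPKM in wild-type libraries, a change of -0.49 ± 0.16 (limma adjusted p = 0.09298). Zfp719 was at 3.87, 3.296, 2.79, 2.297 and 3.06 FPKM in mutator libraries and 4.69, 4.29 and 4.03 FPKM in wild-type libraries, a change of -0.45 ± 0.16 (limma adjusted p = 0.107). Neither gene's groups overlapped, and neither change passed the threshold. Zfp715 passed it with 8 separate libraries and Zfp719 with array weights, where 10.9% and 12.3% of all genes tested were lower. Of 3 other genes tested there 1 was lower, and their median was -0.08.

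The run at chr9:22225714-22307648 held Zfp809, Zfp599 and Zfp810, with a median of -0.71. Zfp809 and Zfp599 were lower, and Zfp810 was at 1.87, 1.85, 0.904, 0.897 and 1.22 FPKM in mutator libraries and 1.78, 1.38 and 1.37 FPKM in wild-type libraries, with groups that overlapped and a change of -0.19 ± 0.20 (limma adjusted p = 0.533), or 0.07 with TPM. Another run on chromosome 9, at chr9:20428449-20605409, had a median of -0.57 over 4 genes, with Zfp26 lower. On chromosome 13 the 11 genes at chr13:66669928-67827002 all had changes below 0, with a median of -0.40, and 1, Zfp493, was lower; 10 other genes tested there had a median of -0.26 and 1 of them was lower. The longest run, 19 genes at chr17:21008903-23599487, had 16 changes below 0, a median of -0.34 and 1 lower gene, Zfp160. All of these are on the deposited scale.

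The runs at chr8:71908608-71993792, chr7:24081924-24515682, chr13:62129886-62571199, chr7:29768552-30169750 and chr2:150114406-150485091 each held 1 lower member, in this order Zfp882, Zfp428, Zfp808, Zfp566 and Zfp345. Beside Zfp345, 3 of the 4 other genes tested were lower. The other 14 runs held no called member. In 3 runs the median lay above 0: 3 genes on chromosome 5 at 0.03, 5 on chromosome 6 at 0.08 and 6 on chromosome 7, at chr7:127233061-127885996, at 0.16. The 18 other genes tested in the last of these had a median of 0.19.

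**Figure D5:**
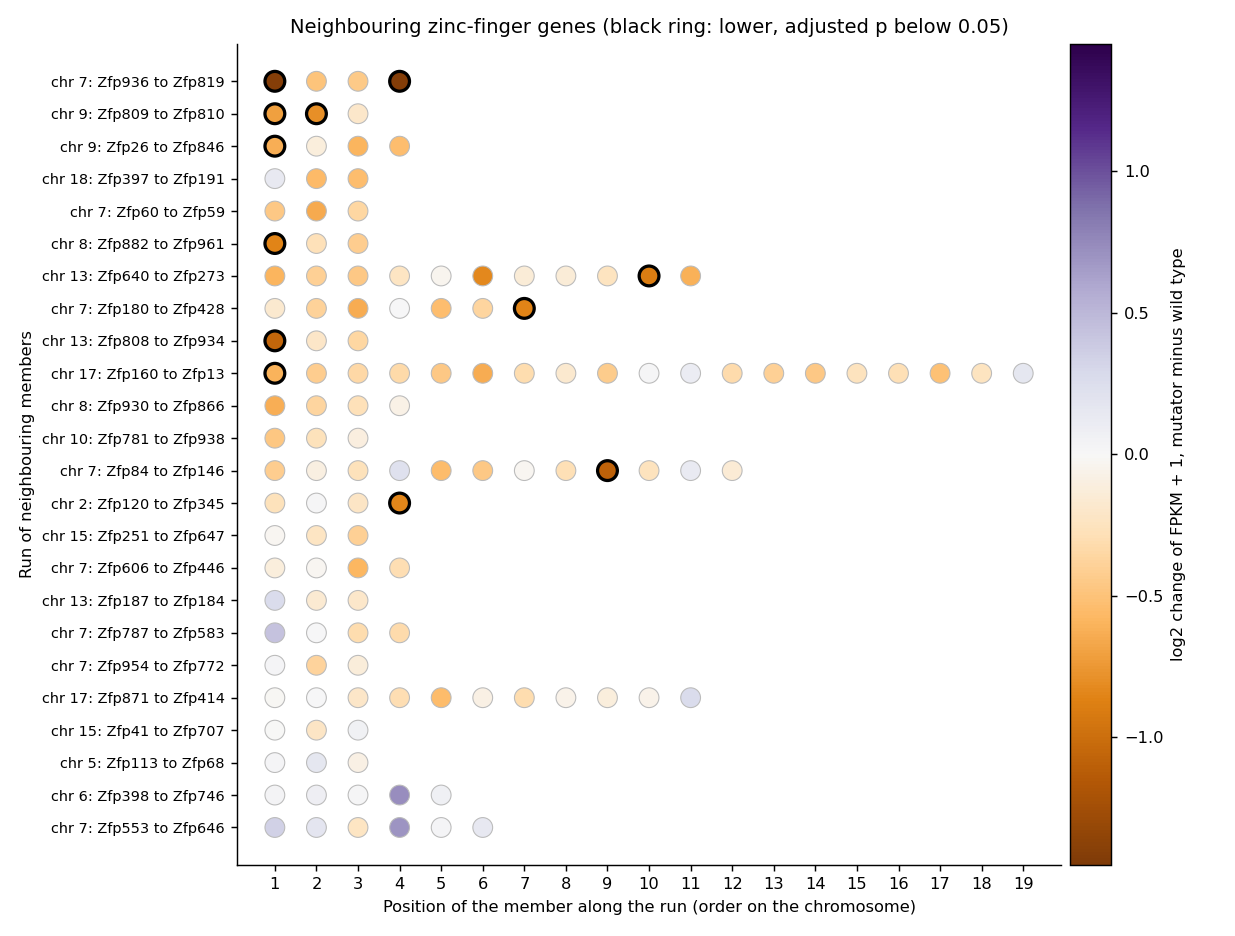
The 24 runs of neighbouring members (rows, by increasing median) in their order along the chromosome (horizontal axis); colour gives the log2 change of FPKM + 1, mutator minus wild type, and black rings mark the 12 lower members. Within runs such as Zfp936 to Zfp819 and Zfp640 to Zfp273 every change lies below 0 in FPKM as deposited, while called members stand among neighbours that are not called.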

How the data were processed

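The deposited values are FPKM, 1 column per library, made by the authors; STAR and Cufflinks are named in the submitters' processing notes. The sources used here do not give their versions, the genome build, the annotation or the strandedness. The choice of members and of all gene lists was made with earlier results of these data known.

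Rows of 1 symbol were summed, and 31 missing cells were kept missing. Of the table's rows, 35531 gene IDs were found in GENCODE M21, and 248 of 250 member rows had a position. All 11949 genes averaging 1 FPKM or more entered a limma 3.58.1 fit (R 4.3.3; lmFit, then eBayes with trend) of log2(FPKM + 1), and p-values were adjusted over all of them by the Benjamini-Hochberg method, with 0.05 as the threshold. Changes on this scale understate those of low genes. The fit was tested on simulated data. Mutator replicates 1 and 2 were averaged and counted as 1 sample; whether other lines vary by culture or by clone is not known, so p-values measure the spread between these samples. Means ± SD are of FPKM over 4 mutator and 3 wild-type samples. Depth is unknown, so no counting interval is given.

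Members named were the called ones, up to 4 called or else the 2 most abundant of each role list, the 3 most abundant, those nearest 1 FPKM, the 3 with the largest SD and called neighbours in runs; others are marked or are listed neighbours, list members or X-linked members. A RefSeq protein had been planned for the domain search; GENCODE coding sequences were translated instead. The C2H2 pattern was C, 2 to 5 residues, C, 12 residues, H, 3 to 5 residues and H. The planned KRAB pattern was F or L, any residue, D, V, any, one of V, I, L or M, any, F or L, any 4 and W, and the wider one began at D and allowed V or L after it. Shared 50-base words were counted in the longest GENCODE transcript of each gene against transcripts of all other genes. Other steps used Python 3.11.15, pandas 2.3.3, NumPy 2.4.6 and matplotlib 3.10.9. Alternatives covered the pseudocount, the filter, the scaling, the treatment of replicates, array weights, leaving out samples and summing of rows.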

Additional observations from a re-analysis of the deposited data

Results flagged for a closer look

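In 3 of 39 members checked, 1 of the 4 mutator samples lay far from the others, with a gap to the nearest above Dixon's 95% critical share of the range. Chance flags about 1 in 20 such groups. For Zfp819 the ratio was 0.987, with mutator replicate 3 high at 2.15 FPKM. For Zfp459, looked at after its values were seen, it was 0.934, with mutator replicate 3 high at 5.70 FPKM against 2.28 to 2.60 FPKM in the other mutator libraries and 5.94 to 6.51 FPKM in wild-type libraries. For Zfp57 it was 0.856, with the averaged mutator replicates 1 and 2 low at 96.2 FPKM. The cause was not tested.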

How the results depend on the processing

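The 21 lower and 0 higher members became 22 and 1 with a pseudocount of 0.1, 32 and 7 with size factors from median ratios, 53 and 4 with 8 separate libraries, 57 and 7 with array weights, and 1 and 8 with TPM, where the member median was 0.17 and that of all genes 0.37. Without a filter 1 member was lower, and with a mean of at least 5 FPKM 10 of 73 were; fewer or more genes then entered the fit. With the replicate number as a block in the fit of 8 libraries 0 were lower; same-numbered samples did not deviate together (correlations 0.0125, 0.0025 and 0.0455), so they share only a number. With mutator replicates 4 and 5 alone, and with 3 and 5 alone (added after seeing the data), 0 were lower. Leaving out 1 sample gave 0 to 23 lower and 0 to 3 higher members, and medians of -0.26 to -0.13. Shares over all genes tested are not given for the pseudocount of 0.1, TPM, the changed filters, the block or the fits with fewer samples. The member counts of those fits therefore cannot be set against the background. Relative to all genes, the member median was -0.22 to -0.07 over all alternatives.

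Several changes reversed. With TPM Zfp57 was at 0.44, Zfp568 at 0.47, Zfp106 at 0.35, Zfp451 at 0.35 and Zfp810 at 0.071. TPM divides each library by its FPKM sum, which was 753984 to 1269265 in mutator and 1192982 to 1780534 in wild-type libraries. This scaling moves all genes of a library together, and the median of all genes was then 0.37. Zfp445, at -0.46 with no overlap of the groups as deposited, was at 0.012 with TPM. With size factors Zfp57 was at 0.012 and Zfp568 at 0.053, and with array weights Zfp568 was at 0.040. With mutator replicates 4 and 5 alone Zfp568 was at 0.064 and Zfp106 at 0.068, and with 3 and 5 alone Zfp568 was at 0.16 and Zfp182 at -0.017. Leaving out 1 sample gave -0.14 to 0.051 for Zfp57, highest without wild-type replicate 2. It gave -0.13 to 0.062 for Zfp568, which was 0.062 without the mutator 1 and 2 pair, 0.012 without mutator replicate 4, 0.031 without wild-type replicate 1 and 0.018 without wild-type replicate 3. The cause of the reversals in the other fits was not tested. With 4 and 3 samples and levels near 3 FPKM, changes smaller than those called may go undetected.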
